A study of Homo sapiens with 12 samples.

Results

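The transcripts of 10 genes, ATF3 and the AP-1 and immediate early factors JUN, JUNB, JUND, FOS, FOSB, FOSL1, FOSL2, EGR1 and MAFF, were followed across an RNA sequencing experiment in SK-OV-3 cells, an established line of human ovarian cancer cells. The members were taken by symbol from the 60623 genes listed for each of the 12 libraries. They were chosen with their rise after doxorubicin in these same libraries already known, so their differences between treatments are described here with their spread and carry no test. Cells were cultured for 24 h in 1 of 4 conditions, with 3 libraries each. The combination cells received 300 nM doxorubicin together with 3 μM IN10018, the doxorubicin cells 300 nM doxorubicin alone, the IN10018 cells 3 μM IN10018 alone, and the DMSO cells only the solvent. Doxorubicin is an anthracycline that intercalates into DNA and traps topoisomerase on it, and IN10018 is a small molecule inhibitor of focal adhesion kinase (FAK). The study asked how FAK inhibition alters the response of tumour cells to doxorubicin. All 4 conditions share the same cell line, at 1 dose of each drug and 1 time, and the sources used here do not say whether the 3 libraries of a condition came from separate cultures, so the spread between them may be technical.

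AP-1 is a family of dimeric transcription factors. A JUN protein (JUN, JUNB or JUND) pairs with another JUN, with a FOS protein (FOS, FOSB, FOSL1 or FOSL2) or with a factor of the ATF group such as ATF3, through a basic leucine zipper (bZIP), and the dimer binds the TPA response element or the closely related cAMP response element. The genes are known as immediate early genes because growth factors, stress and DNA damage induce several of them within minutes through the MAP kinases JNK, p38 and ERK, without new protein synthesis. EGR1 is a zinc finger factor induced by the same kinases through serum response factor, ATF3 is a stress-induced factor that often represses its targets, and MAFF is a small MAF protein that lacks an activation domain and pairs with other bZIP proteins.

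The promoters of the members carry different versions of the sites through which these kinases act, and they are shown here so that the members can be set apart by sequence as well as by level. RefSeq promoters (GRCh38) were found for 9 of the 10 members, at 11 start sites, and the 250 bases before each start were searched on both strands. The cAMP response element was searched as TGACNTCA, which also takes the variant of the JUN promoter, and its shorter core as TGACG, which the element TGACGTCA contains. TGACNTCA was present in 4 of the 11 member promoters (36.4%), against 6.87% of 35116 promoters in the table. The 4 belonged to ATF3, JUN, JUND and MAFF. In ATF3 and in MAFF only the upstream one of 2 start sites had it. The matches are in capitals in the following lines, each read 5′ to 3′ on the strand of the gene.
ATF3 (chr1:212565273-212565302, plus strand, match from position -123): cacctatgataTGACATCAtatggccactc
JUN (chr1:58784096-58784125, minus strand, match from position -67): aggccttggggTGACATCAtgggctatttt
JUND (chr19:18281804-18281833, minus strand, match from position -200): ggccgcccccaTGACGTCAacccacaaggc
MAFF (chr22:38201929-38201958, plus strand, match from position -54): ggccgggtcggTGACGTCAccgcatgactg

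ATF3 and JUN thus held the same letters, TGACATCA, while JUND and MAFF held the palindrome TGACGTCA. The core TGACG, which overlaps the palindrome, was found in 8 of the 11 member promoters (72.7%), against 21.2% of all promoters. In FOS, FOSB, JUNB, FOSL2 and EGR1 it stood without the full element. FOS, FOSB, FOSL2 and EGR1 had a copy at nearly the same distance from the start, and those of FOS and FOSB are shown in the following lines with the core in capitals.
FOS (chr14:75278752-75278780, plus strand, match from position -64): tggttgagcccgTGACGtttacactcatt
FOSB (chr19:45467924-45467952, plus strand, match from position -60): gcaaggggcgggTGACGtaagcagggggg
In the 250 bases searched, EGR1 was the 1 member with the serum response element (CArG box), of the 9 with a promoter. Sites farther upstream were not searched, so its absence from the other members holds for this window only. The window of 1.16% of all promoters contained the element, and that of EGR1 had 2 of them.
EGR1, distal (chr5:138465364-138465393, plus strand, match from position -105): gccggtcctgCCATATTAGGgcttcctgct
EGR1, proximal (chr5:138465386-138465415, plus strand, match from position -83): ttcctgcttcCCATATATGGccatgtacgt
The TPA response element TGACTCA was in none of the 11 member promoters, against 4.2% of all promoters. These are matches of letters in a short window and do not show that a factor was bound.

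Many transcripts of this class are short-lived because of AU-rich elements in the 3′ end of the mRNA. The nonamer TTATTTATT was present in the 3′ UTR of FOS, FOSL2 and MAFF, and in 8.58% of the 9343 genes examined. MAFF had 2 copies and the others 1 each, shown here in capitals with their neighbouring bases from the GENCODE transcripts.
FOS, chromosome 14: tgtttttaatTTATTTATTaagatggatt
FOSL2, chromosome 2: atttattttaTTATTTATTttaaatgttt
MAFF, upstream copy, chromosome 22: tccccactgtTTATTTATTgcacggatct
MAFF, downstream copy, chromosome 22: ctcctagaatTTATTTATTtcctgactta
The shorter core ATTTA occurred 6.20 times per kb in the 3′ UTR of FOS, a density above that of 94.6% of genes, and 4.0 times per kb in JUNB, against a median of 1.74 over all genes. ATF3 (2.45 per kb) and JUN (2.33 per kb) lay nearer to that median.

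Values are FPKM, reads per kilobase of gene scaled to the size of the library. The length implied by the values was near the union of all annotated exons of a gene. For ATF3 it was 4041 bases, against 2033 in the transcript examined, and for MAFF 5612 against 2490. For EGR1 it was 3137 against 3138 bases. FPKM may therefore understate ATF3 and MAFF relative to EGR1, and levels of different genes compare only roughly. The libraries held 8033951 to 12901505 reads. A gene was tested where it reached 1 FPKM in at least 3 libraries, which 11301 genes did. Keratins 7, 8, 18 and 19, EPCAM, PAX8 and ERBB2, which mark ovarian epithelial cells and this line, were above 0 in all 12 libraries. Median levels were 222, 94.5, 20.9 and 96.9 FPKM for the keratins and 91.8 FPKM for ERBB2. EPCAM and PAX8 were low, at medians of 3.20 and 4.70 FPKM. Of markers of other cells, CD68 was at 0 in all 12 libraries, and PTPRC and CD3E were at 0 in 10 of 12. PECAM1, DCN and COL1A2 were also above 0 in all 12, with highest values of 0.273, 0.0492 and 0.624 FPKM. The highest value of HBB was 1.05 FPKM. The summed level of those 7 markers was 0.543 to 1.10 FPKM in combination, 0.478 to 0.583 in doxorubicin, 0.585 to 1.80 in IN10018 and 0.533 to 1.59 FPKM in DMSO libraries. On the leading axis of the differences among libraries of the same treatment, which took 55.4% of that variance, 3 libraries stood apart with scores of 25.3 (combination replicate 2), 36.2 (IN10018 replicate 1) and 36.7 (DMSO replicate 2), the next score being 6.56.

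Of the 10 members 9 passed the filter. ATF3 and FOS passed it only through the doxorubicin and combination libraries, since neither reached 1 FPKM in any IN10018 or DMSO library, and a count over the members that passed is therefore no support for a rise. FOSB stayed below the filter. In bulk RNA, a change in every cell cannot be told apart from a change in the share of cells that express a gene.

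ATF3 had the widest separation of all members. It measured 10.2, 7.35 and 9.42 FPKM in the combination libraries and 6.86, 6.77 and 6.22 FPKM in the doxorubicin libraries. In the IN10018 libraries it measured 0.571, 0.616 and 0.566 FPKM, and in the DMSO libraries 0.556, 0.196 and 0.507 FPKM. Every library with doxorubicin therefore lay more than 10-fold above every library without it, the lowest doxorubicin library being 11.2 times the highest DMSO library. The DMSO values rest on 28, 9 and 22 reads (95% exact Poisson interval of the 9 reads, 4.12 to 17.1, for counting error only), against 317, 319 and 309 reads in the doxorubicin libraries. The ratio of mean levels was 15.8 for doxorubicin against DMSO and 21.4 for the combination against DMSO. On the log2(FPKM + 1) scale of the model, which understates the change of a gene this low in DMSO, the differences were 2.43 (SE 0.16) and 2.81 (SE 0.16), at positions 8 and 5 of the 11301 genes ordered by size.

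**Figure D1:**
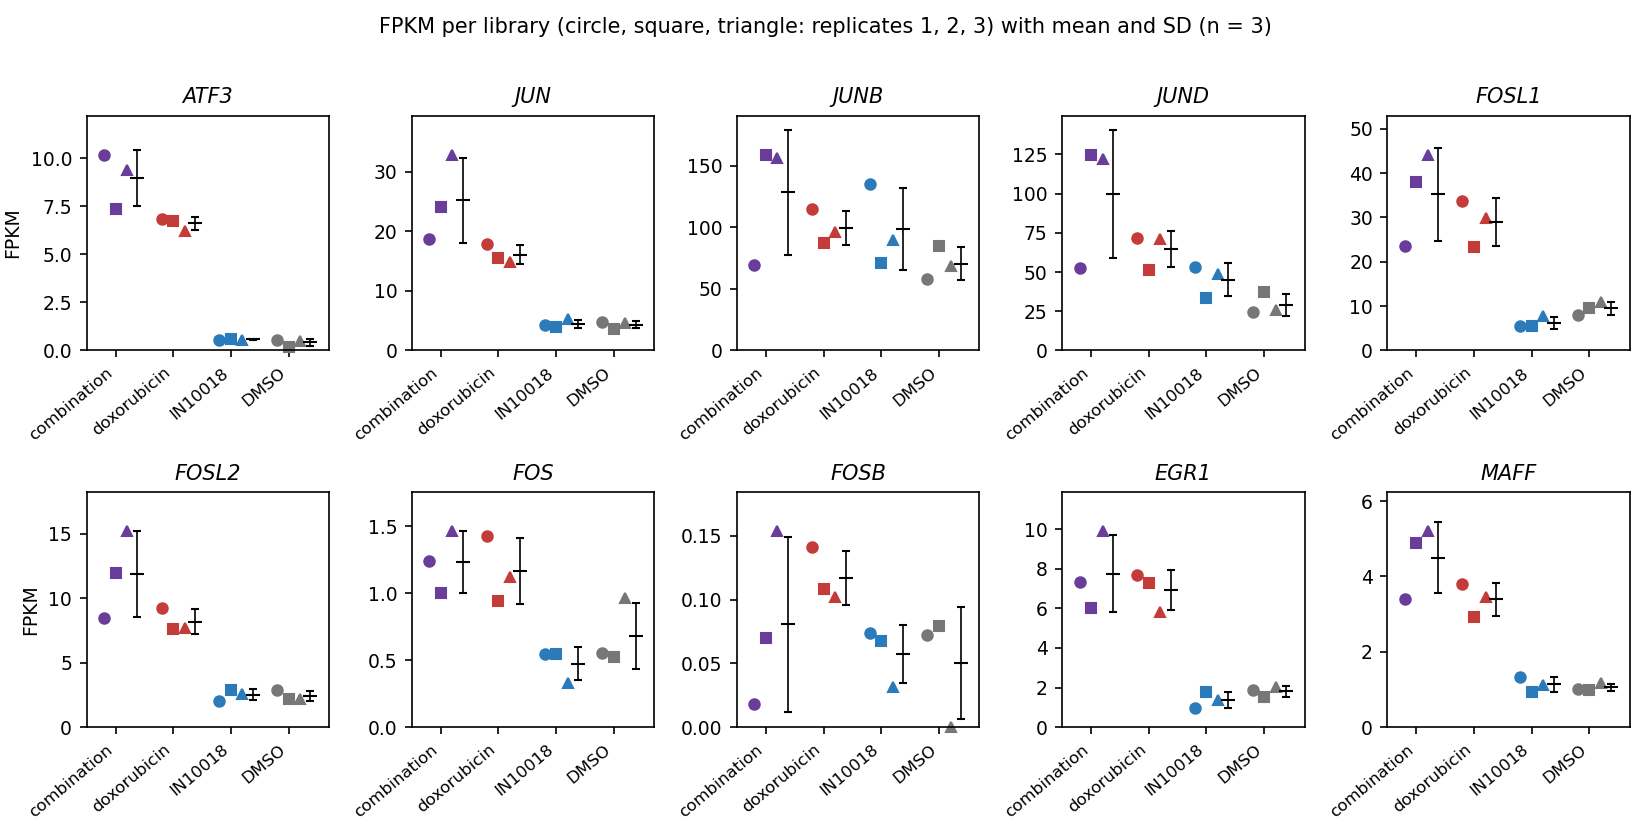
FPKM of the 10 members in each of the 12 libraries, by treatment, on a linear axis from 0 with its own scale per gene; circles, squares and triangles are replicates 1, 2 and 3, and the bars give the mean and SD of 3 libraries. For ATF3, JUN, FOSL1, FOSL2, EGR1 and MAFF the combination and doxorubicin libraries form a group apart from the IN10018 and DMSO libraries, whereas the groups of JUNB run into each other.

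JUN, the prototype of the JUN family and the main substrate of JNK, showed the same division at a higher level. Its values were 18.7, 24.1 and 32.9 FPKM in the combination, 17.8, 15.6 and 14.8 FPKM in doxorubicin, 4.25, 3.97 and 5.30 FPKM in IN10018 and 4.73, 3.60 and 4.68 FPKM in DMSO libraries. Mean JUN was 25.2 ± 7.16 FPKM in the combination, 16.1 ± 1.57 in doxorubicin, 4.51 ± 0.698 in IN10018 and 4.34 ± 0.640 FPKM in DMSO (SD, n = 3 each). JUN was thus 5.81 times its DMSO mean in the combination and 3.71 times in doxorubicin, and the IN10018 and DMSO libraries overlapped.

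JUNB and JUND, the other members of the family, were the most abundant of the 10 genes in every treatment and behaved differently from JUN. JUNB, which often opposes JUN in growth control, measured 69.8, 159.1 and 156.6 FPKM in the combination, 114.8, 87.6 and 96.1 FPKM in doxorubicin, 135.6, 71.1 and 90.1 FPKM in IN10018 and 58.5, 85.0 and 68.3 FPKM in DMSO libraries. The doxorubicin libraries of JUNB lay above the DMSO libraries by a narrow margin, the lowest being 1.03 times the highest DMSO library, and the combination and DMSO ranges overlapped. JUND, which is usually present in resting cells, measured 52.8, 124.7 and 122.0 FPKM in the combination, 71.4, 51.2 and 70.7 FPKM in doxorubicin, 53.5, 33.4 and 48.6 FPKM in IN10018 and 24.3, 37.0 and 25.9 FPKM in DMSO libraries. All combination and doxorubicin libraries of JUND lay above all DMSO libraries, and the IN10018 libraries fell between and overlapped both.

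FOSL1 and FOSL2, FOS proteins without a transactivation domain, made up most of the FOS family transcript. FOSL1 (FRA1), which is driven by ERK signalling, measured 23.6, 37.9 and 44.1 FPKM in the combination and 33.8, 23.2 and 29.9 FPKM in doxorubicin libraries. It measured 5.41, 5.47 and 7.74 FPKM in IN10018 and 8.08, 9.62 and 11 FPKM in DMSO libraries. FOSL1 was the 1 member whose IN10018 libraries all lay below the DMSO libraries (ratio of means 0.649), and its lowest library with doxorubicin was still above its highest DMSO library by a factor of 2.11. FOSL2 (FRA2) measured 8.49, 11.9 and 15.2 FPKM in the combination, 9.27, 7.60 and 7.70 FPKM in doxorubicin, 2.04, 2.92 and 2.59 FPKM in IN10018 and 2.88, 2.17 and 2.21 FPKM in DMSO libraries. FOSL2 followed JUN closely, with ratios to the DMSO mean of 4.91 in the combination and 3.39 in doxorubicin.

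FOS and FOSB, which serum induces within minutes and only briefly, were scarce at 24 h. FOS measured 1.24, 0.998 and 1.46 FPKM in the combination, 1.43, 0.941 and 1.12 FPKM in doxorubicin, 0.543, 0.547 and 0.332 FPKM in IN10018 and 0.554, 0.526 and 0.964 FPKM in DMSO libraries. The doxorubicin and DMSO ranges of FOS overlapped through DMSO replicate 3, which alone held 33 of the 74 DMSO reads of the gene. FOSB had 1, 5 and 11 reads in the combination, 9, 7 and 7 in doxorubicin, 5, 3 and 2 in IN10018 and 5, 5 and 0 reads in DMSO libraries, where a count of 0 still allows up to 3 reads. All 3 doxorubicin libraries of FOSB (0.102 to 0.142 FPKM, 23 reads in all) lay above all 3 DMSO libraries (0 to 0.0794 FPKM, 10 reads), but the gene was below the filter and was not tested. The gene overlaps ERCC1 on the other strand, which reached 8.14 FPKM, so that its few reads may belong to ERCC1 if the counting ignored strand.

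EGR1 and MAFF stand outside the JUN and FOS families. EGR1 measured 7.33, 6.03 and 9.88 FPKM in the combination, 7.69, 7.29 and 5.80 FPKM in doxorubicin, 0.971, 1.79 and 1.35 FPKM in IN10018 and 1.89, 1.52 and 2.05 FPKM in DMSO libraries. Its combination and doxorubicin libraries were interleaved, at 4.26 and 3.81 times the DMSO mean. MAFF measured 3.41, 4.89 and 5.19 FPKM in the combination, 3.80, 2.92 and 3.46 FPKM in doxorubicin, 1.34, 0.932 and 1.13 FPKM in IN10018 and 1.02, 0.990 and 1.16 FPKM in DMSO libraries. MAFF was at 4.26 times its DMSO mean in the combination and 3.22 times in doxorubicin, with no overlap in either case.

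Ordered by FPKM, JUNB, JUND, FOSL1, JUN and FOSL2 came at the top in this order in every treatment. Because of the gene lengths described above, places that differ little in FPKM, those of ATF3 and EGR1 among them, are approximate. In the combination the ranges of JUNB and JUND overlapped, as did those of FOSL1 and JUN, whereas in DMSO each of these 5 genes lay wholly above the next. ATF3 moved in this order, since its mean of 8.99 FPKM in the combination and 6.61 FPKM in doxorubicin overlapped that of EGR1, while at 0.584 FPKM in IN10018 and 0.420 FPKM in DMSO it was below MAFF.

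**Figure D2:**
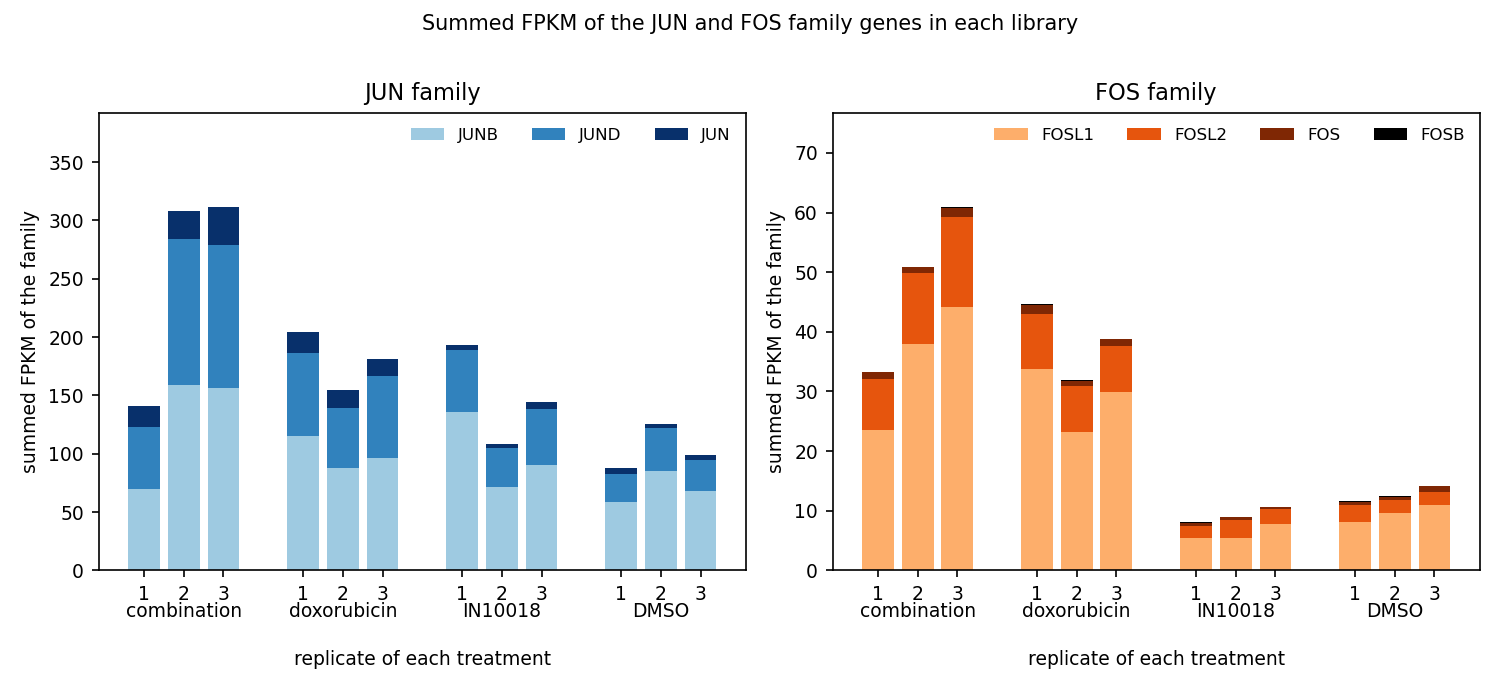
Summed FPKM of the JUN family (left) and of the FOS family (right) in each library, stacked by gene, with the 3 replicates of each treatment side by side. The JUN family is mostly JUNB and JUND in every library while JUN widens in the libraries with doxorubicin, and FOSL1 is the largest part of the FOS family throughout.

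The make-up of the 2 families differed between treatments, as the stacked plot of family levels shows. JUN was 10.5 ± 2.70% of the summed JUN family FPKM in the combination and 9.0 ± 0.998% in doxorubicin, against 3.18 ± 0.850% in IN10018 and 4.34 ± 1.32% in DMSO (SD, n = 3 each). The share of JUNB was 50.5% in the combination and 55.3% in doxorubicin, against 66.1% in IN10018 and 67.9% in DMSO. JUND took 39% in the combination and 35.7% in doxorubicin, against 30.7% in IN10018 and 27.8% in DMSO. The summed family itself was 253 ± 97.2 FPKM in the combination, 180.0 ± 24.9 in doxorubicin, 149 ± 42.6 in IN10018 and 104 ± 19.5 FPKM in DMSO libraries. Within the FOS family FOSL1 stayed at 72.6% in the combination and 75.2% in doxorubicin, against 66.8% in IN10018 and 75.0% in DMSO. The FOS share was 2.69% in the combination and 3.01% in doxorubicin, against 5.30% in IN10018 and 5.28% in DMSO. The size of each share also depends on the gene lengths described above.

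In doxorubicin against DMSO, 7 members were past the threshold applied to all genes (limma, Benjamini-Hochberg adjusted p under 0.05), where 8.02% of all genes were past it and 5.92% were past it as higher. These members, all higher in doxorubicin, were ATF3, JUN, JUND, FOSL1, FOSL2, EGR1 and MAFF. Since the members were chosen on this contrast, nothing is read from the count. On the log2 scale FOSL1 differed by 1.5 (SE 0.25), EGR1 by 1.49 (SE 0.20), FOSL2 by 1.43 (SE 0.20), JUN by 1.68 (SE 0.21) and MAFF by 1.09 (SE 0.16). JUND differed by 1.13 (SE 0.32), JUNB by 0.50 (SE 0.32) and FOS by 0.37 (SE 0.16), and the last 2 were not past the threshold. Libraries did not overlap in 8 of the 9 members, all but FOS, and all 3 doxorubicin libraries lay above all 3 DMSO libraries in 19% of all genes. The median of all genes was -0.01. The summed level of the 13 mitochondrially encoded protein transcripts also separated these libraries, at 16137 to 17843 FPKM in doxorubicin against 21485 to 25709 FPKM in DMSO. It was 19770 to 24073 FPKM in combination libraries, which overlapped the DMSO range, and 22483 to 23047 FPKM in IN10018 libraries. Its part in the values of the members was not tested.

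In IN10018 against DMSO, 0 members were past the threshold, as were 0.00885% of all genes (limma, 1 gene), and limma voom on the reads behind the values also called 0 members. At an unadjusted p under 0.05 FOSL1 was the 1 member, where 3.66% of all genes were. FOSL1 was at -0.56 (SE 0.25), JUND at 0.62 (SE 0.32) and JUNB at 0.45 (SE 0.32). The IN10018 libraries of ATF3 all lay above the DMSO libraries, by a margin of 1.02-fold between the nearest libraries and at a log2 difference of 0.17 (SE 0.16). All 3 libraries lay above in 3.88% of all genes and below in 3.45%. JUN (0.04), FOSL2 (0.04) and MAFF (0.05) were close to 0 and turned negative under 3 or 4 of the alternatives tried for them, and FOS (-0.18) and EGR1 (-0.26) had overlapping ranges.

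**Figure D3:**
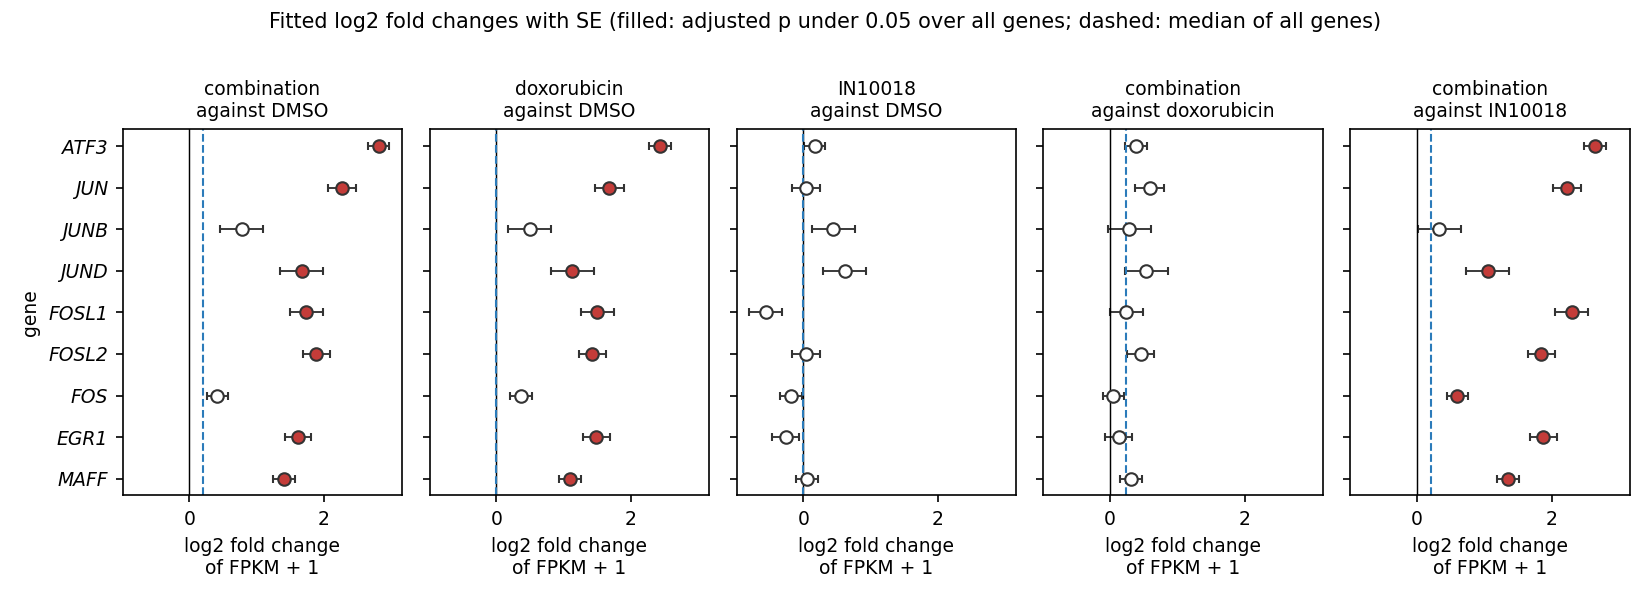
Fitted log2 fold changes of FPKM + 1, with standard errors, of the 9 members that passed the filter in 5 comparisons; filled points are past the threshold used for all genes, and the dashed line is the median of all genes. Most members lie to the right in the comparisons that differ in doxorubicin, while no point is filled in IN10018 against DMSO, where JUND is at 0.62 and FOSL1 at -0.56, or in the combination against doxorubicin, where JUN is at 0.59 and the median of all genes at 0.23.

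The combination differed from DMSO in the same 7 members, where 15.6% of all genes were past the threshold and 14.3% as higher. This comparison shares the DMSO libraries with the 2 before it. The log2 difference was 2.27 (SE 0.21) for JUN, 1.88 (SE 0.20) for FOSL2, 1.74 (SE 0.25) for FOSL1, 1.67 (SE 0.32) for JUND, 1.62 (SE 0.20) for EGR1 and 1.41 (SE 0.16) for MAFF. JUNB at 0.78 (SE 0.32) and FOS at 0.41 (SE 0.16) were not past it, and JUNB passed only without combination replicate 1, at 1.17. Libraries did not overlap in 8 of the 9 members, all but JUNB, against 24.8% of all genes with all combination libraries above. The median of all genes stood at 0.20 here, and at -0.03 after scaling by median ratios, so the members are read relative to that shift.

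Between the combination and doxorubicin, 0 members and 0% of all genes were past the threshold (limma), while limma voom called 2 genes and 0 members. At an unadjusted p under 0.05 there were 3 members (ATF3, JUN and FOSL2) and 15.7% of all genes. All 3 combination libraries lay above all 3 doxorubicin libraries for ATF3 and JUN, by factors of 1.07 and 1.05 between the nearest libraries, as they did in 24.8% of all genes. The log2 difference was 0.59 (SE 0.21) for JUN, 0.54 (SE 0.32) for JUND, 0.46 (SE 0.20) for FOSL2, 0.38 (SE 0.16) for ATF3 and 0.31 (SE 0.16) for MAFF, against a median of 0.23 over all genes. All 9 members were above 0, as were 81.2% of all genes. After scaling by median ratios the median of all genes was 0.01, JUN stood at 0.30 and ATF3 at 0.12, and FOSL1 (-0.04), JUNB (-0.01), FOS (-0.11) and EGR1 (-0.13) turned negative. Of the members, ATF3 came past the threshold without the 3 libraries that stand apart, at 0.50, and JUN without combination replicate 1, at 0.77. Those 3 libraries were picked for their deviation within treatments. Leaving them out removes much of that spread, so the call of ATF3 there is no support.

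In the combination against IN10018, 8 members were past the threshold, all higher in the combination, where 16.1% of all genes were past it and 14.6% as higher. The median of all genes stood at 0.20 in this comparison, and at -0.03 after scaling by median ratios. Member values are read relative to that shift. The differences of ATF3 (2.65, SE 0.16), FOSL1 (2.30, SE 0.25), JUN (2.22, SE 0.21), EGR1 (1.88, SE 0.20), FOSL2 (1.85, SE 0.20) and MAFF (1.36, SE 0.16) left no overlap between libraries, nor did that of FOS, so 7 of the 9 members had all combination libraries above, against 24.6% of all genes. FOS, at 0.60 (SE 0.16), was past the threshold only here, with 1.24, 0.998 and 1.46 FPKM in the combination against 0.543, 0.547 and 0.332 FPKM in IN10018 libraries. Like ATF3, FOS passed the filter only through libraries with doxorubicin, so its call and its lack of overlap are no support for a rise. The call of FOS was kept under 16 of 22 alternatives and was lost, among others, without combination replicate 3, without IN10018 replicate 3 and, at 0.44, after scaling by median ratios, while its difference stayed at 0.53 to 0.68 when each library was left out in turn. Whether FOS differed more here than in doxorubicin against DMSO is the interaction of the drugs, and it was 0.23 (SE 0.23). JUND was past it at 1.05 (SE 0.32) although its ranges overlapped, and JUNB was at 0.33 (SE 0.32). For the interaction, 0 members and 0% of all genes were past the threshold (limma), with FOSL1 at 0.80 (SE 0.35) and JUN at 0.54 (SE 0.30) against a median of 0.24. FOSL1 was the 1 member at an unadjusted p under 0.05, where 6.1% of all genes were, and limma voom called 0 members.

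Since the members were chosen on their rise with doxorubicin, how often their calls were kept describes the processing and supports nothing. The call of JUND was the one that changed most often with it. In doxorubicin against DMSO it was kept under 12 of 23 alternatives. It was lost when any 1 of the 3 doxorubicin libraries was left out, although the difference stayed at 1.02 to 1.31 over all libraries left out in turn, and it was lost at 0.54 once GC content and gene length had been corrected for, a step chosen after seeing the data. In the combination against IN10018 it was kept under 10 of 23, and was lost at 0.98 without the 3 libraries that stand apart and at 0.40 after that correction. In the combination against DMSO it was kept under all 23, at 0.85 after the correction.

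On the log2(FPKM + 1) scale JUNB and JUND varied most of the 9 tested members between libraries of the same treatment (pooled SD 0.44 each). That scale compresses the spread of low genes, such as ATF3 in DMSO. After subtraction of treatment means, the deviations of JUNB and JUND ran together (r = 0.94 over 12 libraries) and ran with the axis on which 3 libraries stand apart (r = 0.79 for JUNB and 0.73 for JUND). ATF3 (r = -0.79) and EGR1 (r = -0.69) ran the other way, and JUN (-0.15), FOS (-0.24), FOSL1 (0.18) and FOSL2 (-0.21) were weakly related to it. MAFF lay between at r = 0.45, and its deviations ran with those of JUNB (r = 0.88) and JUND (r = 0.85). Within the combination, replicate 3, with a score of -3.53, was nearly as high as replicate 2 for JUNB (156.6 and 159.1 FPKM) and JUND (122.0 and 124.7 FPKM). Replicate 1 was the low library for both, at 69.8 and 52.8 FPKM. These values share the same 12 libraries and are descriptions. The GC content of the transcript was 69.7% for JUND, above that of 99.5% of protein-coding genes tested, and 64.9% for JUNB, above 95.1%, against a median of 48.5% and 50.8% for ATF3. With the 3 libraries left out, JUNB was at 0.64 in doxorubicin against DMSO and 0.72 in the combination against DMSO, and not past the threshold in either. The part of GC content and of this axis in the JUNB and JUND values was not tested beyond these alternatives.

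**Figure D4:**
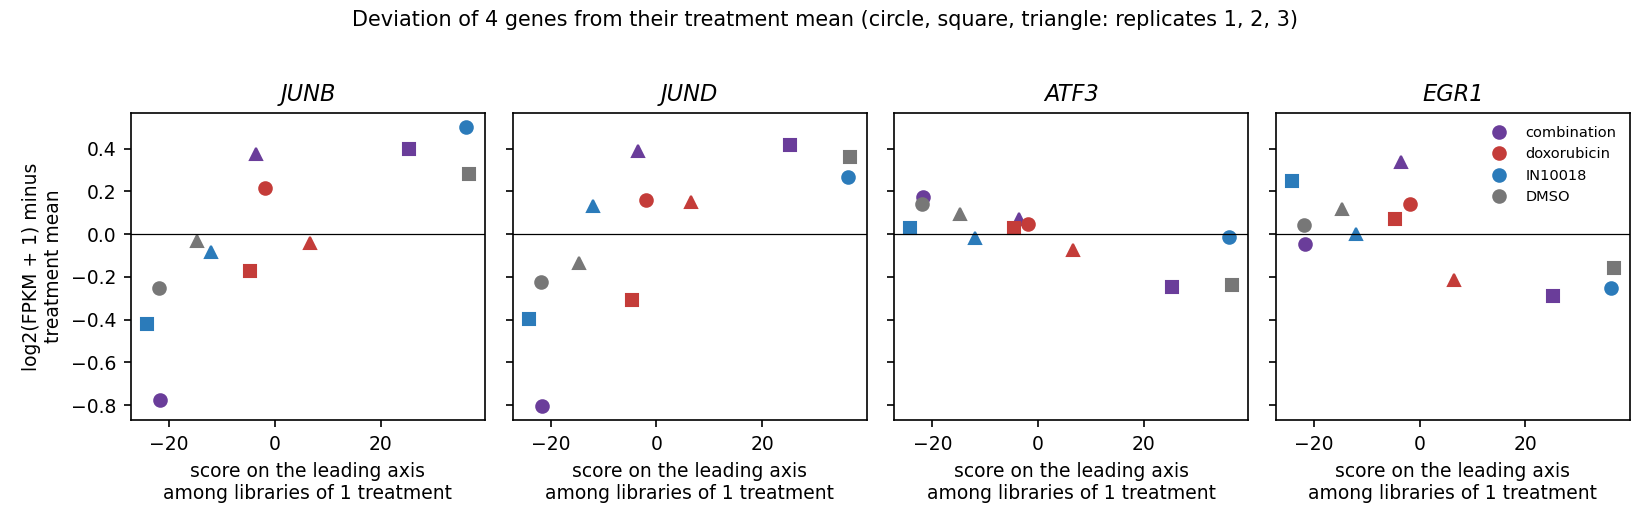
Deviation of log2(FPKM + 1) from the treatment mean, in log2 units, against the score of the library on the leading axis among libraries of 1 treatment, for JUNB, JUND, ATF3 and EGR1; colours give the treatment, and circles, squares and triangles replicates 1, 2 and 3. The 3 libraries at the right are high for JUNB and JUND, while combination replicate 2 and DMSO replicate 2 are low for ATF3. Combination replicate 3, which does not stand apart on the axis, is nearly as high as combination replicate 2 for JUNB and JUND, and combination replicate 1 is low.

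The genes whose pattern was most like that of ATF3 over the 12 libraries, among 9520 protein-coding genes and by Pearson r of log2(FPKM + 1), were GADD45A, NR1D1, HES4, TAF1A and GINS3. GADD45A, a growth arrest gene known for its induction by DNA damage, was highest at r = 0.99, with a mean of 86.9 FPKM in the combination, 57.0 in doxorubicin, 7.27 in IN10018 and 8.02 FPKM in DMSO. For JUN they were PLAU, ZC3H8, NFKB2, NR1D1 and TCIRG1. PLAU, the urokinase plasminogen activator, had r = 0.99 with JUN and still 0.91 after treatment means were subtracted, so the 2 transcripts moved together among libraries of the same treatment as well. For GADD45A and ATF3 that value was 0.52. Many genes that differ with doxorubicin have a high r over these libraries, and no shared control is read from it.

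The partners with which AP-1 proteins can pair were examined as a list of 30 bZIP genes, of which 24 were tested. In doxorubicin against DMSO 5 rose and 0 fell, and in the combination against DMSO 8 rose and 0 fell. Of all genes, 5.92% were called higher in doxorubicin against DMSO and 14.3% in the combination against DMSO. These shares stand beside the counts of genes that rose, in this and the following lists, as background. CREB5 and CEBPA, counted in both comparisons, had DMSO and IN10018 means of 0.325 FPKM or less. Like ATF3 and FOS, they passed the filter only through libraries with doxorubicin, so their calls are no support for a rise. The same holds at least for HBEGF and IL6 in the lists that follow. All lists were written with earlier results of these data known, so their counts and adjusted p are descriptions and no independent support. The list median was 0.12 in doxorubicin and 0.49 in the combination, against medians of -0.01 and 0.20 over all genes. Of the 24 partners, 17 were above 0 in doxorubicin and 23 in the combination. ATF4 was lower without passing the threshold (log2 -0.80 in doxorubicin and -0.57 in the combination). Its means were 122.6 FPKM in the combination, 98.5 in doxorubicin and 181.8 FPKM in DMSO. NFIL3, a repressor of the same bZIP class, rose to 12.6 FPKM in the combination and 9.98 FPKM in doxorubicin, against 3.69 FPKM in DMSO (log2 1.57 and 1.26, adjusted p = 0.000811 and 0.00558 by limma). DDIT3 (CHOP), the integrated stress response factor, rose to 62.5 FPKM in the combination and 54.6 FPKM in doxorubicin, against 24.0 FPKM in DMSO (adjusted p = 0.0036 and 0.014). The call of DDIT3 was lost under 1 of 23 alternatives in the combination and 4 of 23 in doxorubicin. CEBPG rose in the combination (18.2 against 8.90 FPKM in DMSO, adjusted p = 0.0105), and CEBPB (30.2 against 15.3 FPKM, adjusted p = 0.0394) lost its call under 16 of 23 alternatives. The number of partners called ranged from 3 to 8 in doxorubicin and from 4 to 10 in the combination over the alternatives. BATF, MAF and BACH2 were among the 6 partners below the filter.

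Of 40 other immediate early genes 29 were tested, and 9 rose in doxorubicin and 15 in the combination against DMSO, with 0 falling in either. The list median was 0.38 in doxorubicin and 0.74 in the combination. Of the 29 genes, 25 were above 0 in doxorubicin and 27 in the combination. ID1 was lower without passing the threshold, at 448 FPKM in the combination and 413 in doxorubicin, against 644 FPKM in DMSO. KLF10, a zinc finger repressor induced early by TGF-beta, rose to 44.4 FPKM in the combination and 31.3 FPKM in doxorubicin, against 8.49 FPKM in DMSO (log2 2.28 and 1.81, adjusted p = 0.000208 and 0.00154 by limma). ID3, an inhibitor of basic helix-loop-helix factors, rose to 256 FPKM in the combination and 284 FPKM in doxorubicin, against 82.4 FPKM in DMSO (adjusted p = 0.00527 and 0.0051). CSRNP1, a nuclear protein of the early response, rose to 9.75 FPKM in the combination and 8.29 FPKM in doxorubicin, against 1.87 FPKM in DMSO (adjusted p = 0.00205 and 0.00581). DUSP1, the phosphatase that switches off JNK and p38, rose to 18.8 FPKM in the combination and 17.7 FPKM in doxorubicin, against 5.24 FPKM in DMSO (adjusted p = 0.000208 and 0.000541). These 4 rose in both comparisons, and the call of ID3 in the combination was lost after scaling by median ratios. EGR2, EGR3 and EGR4, the relatives of EGR1, were all below the filter. So were NR4A1, NR4A2 and NR4A3, other early response genes of the list. No library was above 0.587 FPKM for any of them.

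Genes that carry the signal to AP-1 were examined next. Of 29 tested MAP kinases and promoter factors (35 listed), 0 passed the test in doxorubicin against DMSO (limma; limma voom also called 0, and 2 had an unadjusted p under 0.05). That number became 7 without the 3 libraries that stand apart, when 26.7% of all genes were called. In the combination against DMSO 3 of the 29 rose, where 14.3% of all genes did, so the count shows nothing particular to these genes. Among the 3 were MAP3K11, a kinase that activates JNK (12.6 against 5.01 FPKM in DMSO, adjusted p = 0.0221), and RPS6KA1, an ERK-activated kinase (6.16 against 3.63 FPKM, adjusted p = 0.0391). Both calls were lost under many alternatives, 10 of 23 for MAP3K11 and 14 of 22 for RPS6KA1. Of 8 tested MAP kinase phosphatases (10 listed), DUSP5 and DUSP8 rose in doxorubicin and, with DUSP10, in the combination. DUSP5, a phosphatase of ERK, was at 4.46 FPKM in the combination and 3.94 FPKM in doxorubicin, against 1.65 FPKM in DMSO (adjusted p = 0.00252 and 0.01). DUSP10, a phosphatase of JNK and p38, was at 13.8 FPKM in the combination against 6.74 FPKM in DMSO (adjusted p = 0.0134), and lost its call under 3 of 23 alternatives. In doxorubicin against DMSO 0 phosphatases were called without doxorubicin replicate 1, and DUSP5 alone without DMSO replicate 1, DMSO replicate 3 or doxorubicin replicate 3. DUSP5 and DUSP8 were named after their values were seen.

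**Figure D5:**
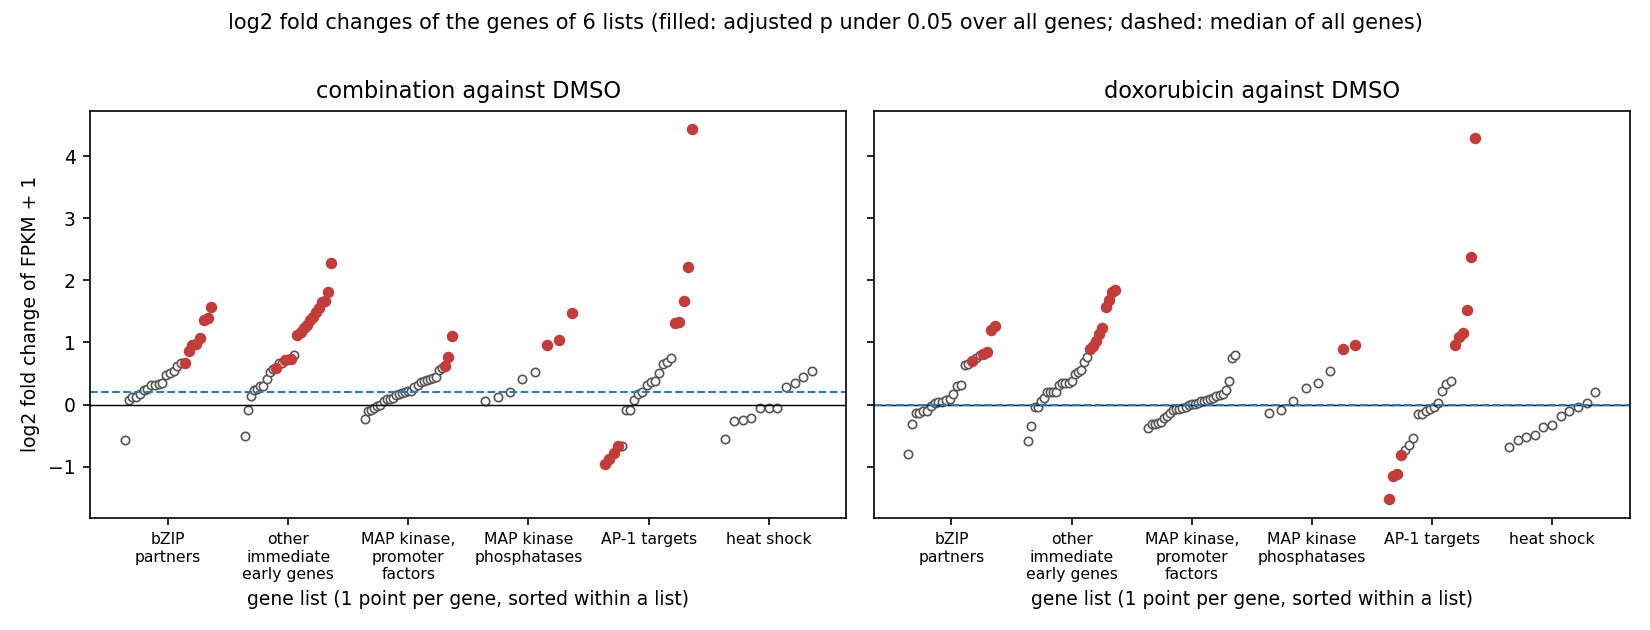
Fitted log2 fold changes of FPKM + 1 of every tested gene of 6 lists, sorted within each list, for the combination against DMSO (left) and doxorubicin against DMSO (right); filled points are past the threshold over all genes and the dashed line is the median of all genes. The immediate early list leans upwards, the AP-1 targets split in both directions, and the heat shock genes hold no filled point.

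Known AP-1 target genes went in both directions. Of 27 listed 22 were tested, and in doxorubicin against DMSO 6 rose and 4 fell, while in the combination against DMSO 5 rose and 4 fell. Of all genes, 8.02% were called in either direction in doxorubicin against DMSO, 5.92% of them as higher. In the combination against DMSO these shares were 15.6% and 14.3%, so falls were rarer than rises among all genes. CXCL8, the neutrophil chemokine interleukin 8, rose to 797 FPKM in the combination and 697 FPKM in doxorubicin, against 34.6 FPKM in DMSO (log2 4.43 and 4.29). IL6, an inflammatory cytokine, rose to 5.39 FPKM in the combination and 6.10 FPKM in doxorubicin, against 0.376 FPKM in DMSO (log2 2.21 and 2.37, adjusted p = 7.54e-06 and 7.96e-06 by limma). PLAU rose to 44.7 FPKM in the combination and 29.5 FPKM in doxorubicin, against 13.3 FPKM in DMSO (adjusted p = 0.000207 and 0.00478). SPHK1, which makes sphingosine 1-phosphate, rose to 21.9 FPKM in the combination and 24.3 FPKM in doxorubicin, against 7.98 FPKM in DMSO (adjusted p = 0.00452 and 0.00363). The genes that fell, other than SPP1 named after their values were seen, were the gap junction gene GJA1 (doxorubicin), the collagenase MMP1 (combination) and, in both, the matrix proteases MMP10 and MMP13 and the secreted phosphoprotein SPP1. MMP13 fell to 2.15 FPKM in the combination and 1.76 FPKM in doxorubicin, against 5.10 FPKM in DMSO (adjusted p = 0.00738 and 0.00448). SPP1 fell to 24.1 FPKM in the combination and 13.8 FPKM in doxorubicin, against 42.4 FPKM in DMSO (adjusted p = 0.0465 and 0.00244). Over the alternatives the number of targets called ranged from 6 to 13 in doxorubicin and from 6 to 11 in the combination.

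In IN10018 against DMSO and in the combination against doxorubicin, 0 genes of any of these lists were past the threshold, by limma or by limma voom. At an unadjusted p under 0.05, 2 of 22 AP-1 targets and 1 of 11 heat shock genes were lower in IN10018 than in DMSO. In that comparison 3.66% of all genes passed it in either direction. Of all genes, 15.7% had an unadjusted p under 0.05 in the combination against doxorubicin. There 3 of 24 bZIP partners, 6 of 29 other immediate early genes, 1 of 29 MAP kinase and promoter factor genes, 3 of 8 phosphatases, 5 of 22 AP-1 targets and 4 of 11 heat shock genes did so, all higher in the combination. Without the 3 libraries that stand apart, 11.7% of all genes were past the threshold in that comparison, as were 4 of the 29 other immediate early genes, 3 of the 22 AP-1 targets, 2 of the 11 heat shock genes, 1 phosphatase, 1 bZIP partner and 0 MAP kinase and promoter factor genes. Immediate early genes also respond to heat and handling, and 11 heat shock genes were examined beside them. Their summed level was 454 to 544 FPKM in the combination, 421 to 477 in doxorubicin, 432 to 581 in IN10018 and 469 to 665 FPKM in DMSO libraries, and 0 of the 11 were past the threshold in any comparison by limma or by limma voom. At an unadjusted p under 0.05, 3 were lower in doxorubicin than in DMSO, and 4 were past the threshold there without the 3 libraries that stand apart, as were 26.7% of all genes. The median of these genes was -0.33 in doxorubicin against DMSO and -0.06 in the combination against DMSO.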

How the data were processed

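RNA of SK-OV-3 cells was sequenced in 12 libraries, 3 per treatment, from a directional library kit. Reads were checked with FASTQC and passed through TopHat and Cuffdiff by the authors, whose processing notes add Cufflinks and the hg38 build. Versions, the annotation and the strand setting were not given in the sources used here. Deposited FPKM values cover 60623 genes and carry no further scaling between libraries. They proved to be whole-number multiples of a unit per gene in each of the 24090 genes detected in 3 or more libraries (relative tolerance 1e-10), so whole reads could be recovered, and these gave the depth of 8033951 to 12901505 reads and the reads per gene. Intervals on reads cover counting error only.

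Genes sharing a symbol (93 symbols) were summed. A linear model with 4 treatments was fitted to log2(FPKM + 1) of the 11301 genes that reached 1 FPKM in 3 or more libraries (limma 3.58.1 under R 4.3.3, trended eBayes, 8 residual degrees of freedom, no block), two-sided, with Benjamini-Hochberg adjustment over these genes and a threshold of 0.05. Adjusted p in the text are limma's unless voom is named. The members and the lists were chosen with earlier results of these data known. For the members no p is given, because their response chose them. Named genes were the 10 members, up to 4 genes per list with the largest changes past the threshold and at least 5 FPKM in 1 treatment (2 in other comparisons than doxorubicin or the combination against DMSO), and the 5 genes most like ATF3 and JUN by Pearson r. The steps were tested on simulated data. Alternatives were other pseudocounts (0.1, 0.5), filters (none, 5 FPKM), median-ratio and quantile scaling, only the treatments compared, a replicate block, limma voom on recovered reads, leaving out libraries, and a GC content and length correction chosen after seeing the data. The 3 libraries that stand apart were likewise picked from these data. Positions and 3′ UTRs are from GENCODE release 29 and promoters from RefSeq, both on GRCh38. Files were read with Python 3.11.15, numpy 2.4.6 and pandas 2.3.3, intervals came from scipy 1.17.1 and figures from matplotlib 3.10.9.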

Additional observations from a re-analysis of the deposited data

How the results depend on the processing

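The numbers of members past the threshold stayed at 6 or 7 in doxorubicin against DMSO, 6 to 8 in the combination against DMSO, 6 to 8 in the combination against IN10018 and 0 in IN10018 against DMSO. In the combination against doxorubicin the number was 0, and 1 without the 3 libraries that stand apart (ATF3) and 0 to 1 when each library was left out in turn. No member or listed gene that was called changed direction. JUND lost its call in doxorubicin against DMSO without DMSO replicate 1 or 3, any doxorubicin replicate, IN10018 replicate 3 or combination replicate 3, and in the combination against IN10018 without DMSO replicate 3, doxorubicin replicate 1 or 3, IN10018 replicate 2 or 3 or combination replicate 2 or 3, and also with no filter (1.13 and 1.05) or median-ratio scaling (1.11 and 0.74). The pairing of libraries by replicate number was not given by the labels. Deviations of same-numbered libraries had no common direction across treatments (r from -0.68 to 0.72). Between DMSO and the combination r was 0.47, 0.72 and 0.09 for replicates 1, 2 and 3. Between doxorubicin and the combination it was -0.13, -0.27 and -0.11. With the replicate block, 6 members were called in doxorubicin against DMSO and 7 in the combination against DMSO. In the combination against IN10018 7 were called, and in the other comparisons 0, the lost call being that of JUND. The cause of these changes was not tested.

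Numbers of listed genes called moved by more than 1.5 times under some alternatives. In doxorubicin against DMSO the bZIP partners ranged from 3 to 8 (5 as reported), the other immediate early genes from 6 to 13 (9), the MAP kinase and promoter factor genes from 0 to 7 (0), the phosphatases from 0 to 4 (2), the AP-1 targets from 6 to 13 (10) and the heat shock genes from 0 to 4 (0). In the combination against DMSO the ranges were 4 to 10 (8), 10 to 17 (15), 0 to 8 (3), 1 to 5 (3), 6 to 11 (9) and 0 to 2 (0), in the same order. Over all genes the number called without the 3 libraries that stand apart was 3021 in doxorubicin against DMSO, against 906 with them, and 1321 in the combination against doxorubicin, against 0. These libraries were picked for their deviation in the same data, so nothing is read from the larger numbers. The combination, IN10018 and DMSO then lack 1 library each. With pseudocount 0.1 the log2 difference of ATF3 was 3.77 in doxorubicin and 4.2 in the combination against DMSO. Depth limits FOSB, FOS and the DMSO values of ATF3.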
